A study of Homo sapiens with 24 samples.

Results

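MYOD binding was compared between control RD cells and RD cells labelled TWIST2 KD, by chromatin immunoprecipitation and sequencing (ChIP-seq) with an antibody to MYOD. RD is an established human line of fusion-negative rhabdomyosarcoma, a muscle-lineage tumour without the PAX-FOXO1 fusion gene. The members are the peaks of 4 MYOD libraries, 2 control and 2 KD, out of 24 samples in the series, of which 14 have a peak list. Each peak was set to its centre with 100 bp on either side, overlapping windows of the 4 lists were merged, and each merged site was scored for a peak in each library. This gave 88007 MYOD sites from 44974 and 43381 peaks in control replicates 1 and 2 and 52510 and 48003 peaks in KD replicates 1 and 2. The MYOD, H3K27ac and Ty1 libraries belong to a set labelled RD-1, and the SMARCA4 libraries to a set labelled RD-2. The Ty1 libraries come from cells with 3xTy1-TWIST2, a tagged TWIST2. The labels do not give the method, time or depth of the knockdown, the meaning of the set names, or whether replicates are separate cultures, so the spread between replicates may be technical.

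MYOD is a basic helix-loop-helix transcription factor that binds short E-box motifs as a dimer with E proteins and switches on the genes of skeletal muscle. Rhabdomyosarcoma cells make MYOD and yet do not complete muscle differentiation. TWIST2 belongs to the same factor family, can bind E-boxes as well, and its family is known to hold back muscle differentiation. Acetylation of histone H3 at lysine 27, written H3K27ac, marks enhancers and promoters in use. SMARCA4 (BRG1) is the motor subunit of SWI/SNF complexes, which slide or eject nucleosomes.

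Gained sites are those listed in both KD libraries and absent from both control lists, and there were 7903 of them. Lost sites, with a peak in both control libraries and in neither KD library, numbered 4954. A further 18099 sites had a peak in all 4 libraries and are called kept. Gained sites made up 8.98% of all sites (95% Wilson interval 8.79 to 9.17), lost sites 5.63% (5.48 to 5.78) and kept sites 20.6% (20.3 to 20.8), where the intervals cover counting error only. These shares are the background against which any smaller set of sites is read below. A missing peak means that none was listed there, not that MYOD was absent, because the MYOD lists hold no tag counts and the depth of the libraries is unknown.

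Most sites were none of these. The other 57051 sites (64.8%) had a peak in 1 library or in a mixture of control and KD libraries. Peaks of a single library numbered 21941 among the KD and 14679 among the control lists. Sites with a peak in 1 control and 1 KD library, called crossed here because they follow no group, numbered 7381. Control replicates shared 29998 sites, a Jaccard index (shared sites over sites in either) of 0.516, and KD replicates shared 32107, an index of 0.470. Between a control and a KD library the index ran from 0.385 to 0.396, below both within-group values.

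**Figure D1:**
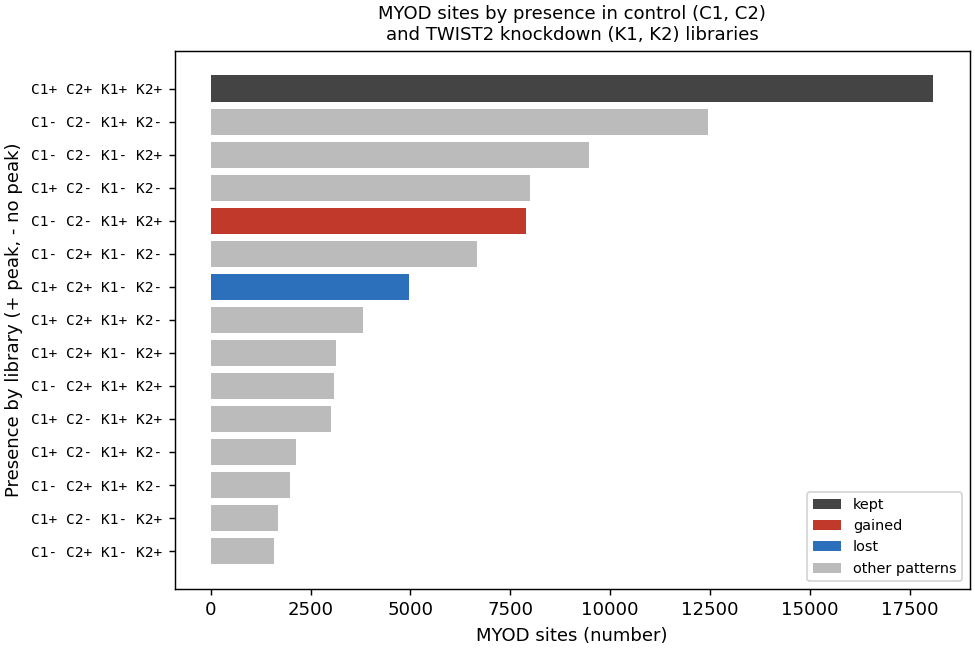
Number of MYOD sites (horizontal axis) with each of the 15 patterns of presence in control replicates 1 and 2 (C1, C2) and KD replicates 1 and 2 (K1, K2), with gained, lost and kept sites coloured. Kept sites are the most frequent pattern at 18099, and the 7903 gained sites outnumber the 4954 lost sites.

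The excess of gained over lost sites was 1.60-fold. The KD lists were also longer, at 50256.5 ± 3187 peaks against 44177.5 ± 1126 (SD, n = 2 each), a ratio of 1.14, and the groups did not overlap. The exact two-sided permutation test over libraries gave p = 0.333, which is the smallest value that 2 libraries against 2 can give, so no comparison over these libraries can pass 0.05. With every list shortened from its end to the length of the shortest, gained sites numbered 6191 and lost sites 5736, a ratio of 1.08. Without control replicate 1 or 2 the ratio turned to 0.907 or 0.826, and without KD replicate 2 it was 2.52. A class that rests on fewer libraries holds more sites by construction: lost sites numbered 12108 and 13414 without control replicate 1 or 2 and 8832 and 8221 without KD replicate 1 or 2. Gained sites numbered 17715 and 20758 without KD replicate 1 or 2. Partial patterns ran the other way: 6105 sites were in both KD and 1 control library, and 6945 in both control and 1 KD library.

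Gained and lost sites lay lower in the lists than kept sites. The files do not state what the order of a list means, so the place is given only as a place. Kept sites made up 81.7% to 86.1% of the sites in the top 10% of each list, against 34.5% to 41.8% of all sites of a library. Gained sites made up 4.95% and 5.17% of the top 10% in KD replicates 1 and 2, against 15.1% and 16.5% of all their sites. Lost sites made up 4.14% and 3.73% of the top 10% in control replicates 1 and 2, against 11.1% and 11.4% of all their sites.

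The kept sites highest in the lists, which show where MYOD was listed first in every library, are given in hg19 coordinates. The first, chr8:31880853-31881068, was at place 4 and 3 in control replicates 1 and 2 and at place 1 and 2 in the KD replicates. Every H3K27ac and every SMARCA4 library had a peak at this site, as did both libraries of tagged TWIST2. The other 3 were chr6:169588553-169588786, chr10:111103135-111103370 and chr1:152081194-152081475, all within the first 15 places of every list. All 3 carried H3K27ac in every library, and tagged TWIST2 was listed in both libraries at the first 2 of them and in neither at the third. Genes are not named at these sites, since the annotation used here is of another build than the peak lists.

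The gained site highest in the KD lists, chr10:80883564-80883779, was at place 171 and 332 in KD replicates 1 and 2. A control peak lay 241 bp from it, and all 4 H3K27ac libraries had a peak there. The next, chr10:62956911-62957114, was at place 551 and 182 and had no control peak within 39791 bp. Both KD libraries, and no control library, had H3K27ac there. At chr10:60325038-60325307, place 289 and 431, the nearest control peak was 12113 bp away. That site had H3K27ac and SMARCA4 in both KD libraries and in no control library, and tagged TWIST2 in both Ty1 libraries. The fourth, chr8:41851084-41851294, at place 545 and 548, lay 1783 bp from a control peak and had H3K27ac in 1 KD library.

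The lost sites highest in the control lists looked different. They were chr10:104420594-104420819, chr1:118876322-118876545, chr16:85482323-85482537 and chr18:38529641-38529854, at places between 208 and 828. A KD peak lay 452, 344, 251 and 445 bp from them, in that order. All 4 had H3K27ac in every control and KD library. SMARCA4 was listed in no library at the first, and in control as well as KD libraries at each of the others. With windows of 250 bp on either side of the centre, these 4 sites and the first gained site were no longer called.

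That contrast held over the whole classes. Gained sites lay a median of 10582 bp from the nearest control peak, and 7.24% of them lay within 450 bp of one. For lost sites the median distance to the nearest KD peak was 1792.5 bp, and 23.5% lay within 450 bp. Crossed sites, measured to the nearest peak of the libraries that lacked them, had medians of 1566.5 to 1976 bp in the 4 pairings, with 26.3% to 29.5% within 450 bp. In distance, lost sites therefore resembled sites that differ between single libraries, and gained sites stood apart from both. The KD lists, to which lost sites were measured, were also the longer ones. With equal numbers of peaks the lost sites' median rose to 3571 bp, and with the first 50% of each list it was 5639.5 bp for lost and 19303 bp for gained sites. Crossed sites were not measured again under these settings, so their likeness to lost sites is given for the main setting only.

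**Figure D2:**
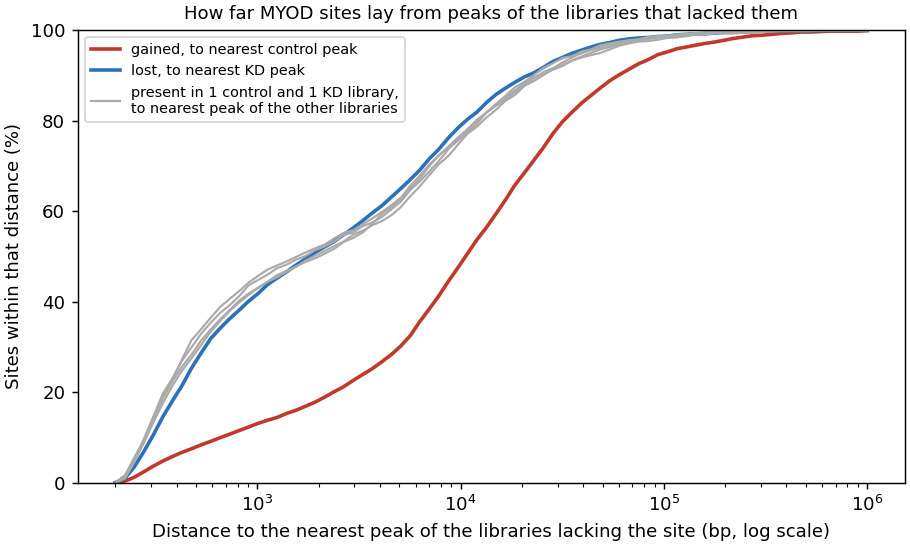
Share of sites (vertical axis, %) within a given distance (horizontal axis, bp, log scale) of the nearest peak of the libraries lacking the site, for gained, lost and crossed sites, with 1 grey line for each of the 4 pairings of a control and a KD library. The lost line runs with the grey lines, and the gained line lies to their right, with a median of 10582 bp.

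The control lists also held more closely spaced peaks. Neighbouring peaks less than 1000 bp apart numbered 5018 and 3985 in control replicates 1 and 2 and 3042 and 2186 in KD replicates 1 and 2, which is 11.2%, 9.19%, 5.80% and 4.56% of neighbouring pairs. No pair of neighbours was closer than 208 and 258 bp in control replicates 1 and 2 or 288 and 289 bp in KD replicates 1 and 2, and peak widths were 159, 179, 213 and 225 bp. The part of this spacing in the number of lost sites was not tested beyond thinning the lists. When every list was thinned to a spacing of 1000 bp, the median distance of lost sites to a KD peak was 2695.5 bp, still below that of gained sites. Within 1000 bp, 297 gained sites (3.76%) had a lost site, and 299 lost sites (6.04%) had a gained one. Where a gained site did have neighbours that close, lost sites were frequent among them. Of 1523 neighbours within 1000 bp of gained sites, 19.8% were lost and 3.41% gained. Of 4393 such neighbours of kept sites, 8.88% were lost and 3.21% gained. The smallest spacing within a list limits gained neighbours of gained sites, and gained or lost neighbours of kept sites. Lost neighbours of gained sites come from other lists and are not limited in this way. These shares are thus set in part by the lists and the class definitions, and how large that part is was not tested.

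H3K27ac differed most at gained sites. A peak of H3K27ac covered 23.3% and 21.7% of gained sites in control replicates 1 and 2 and 61.5% and 59.6% in KD replicates 1 and 2. The control and KD libraries did not overlap, with means of 22.5% ± 1.16 and 60.6% ± 1.31 (SD, n = 2 each), a difference of 38.0 percentage points. Over all MYOD sites the shares were 55.6%, 53.8%, 65.6% and 64.5%, a difference of 10.3 points. Crossed sites differed by 3.21 to 5.69 points. The KD lists of H3K27ac were themselves longer, with 48022 and 46822 peaks against 36679 and 34932 in control. With H3K27ac lists of equal length the difference at gained sites was 24.5 points. It was 24.9 points without MYOD KD replicate 2, 27.6 without KD replicate 1, and 32.4 and 32.6 without control replicate 1 or 2.

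At lost sites the shift was smaller and in the other direction. Shares were 74.1% and 72.4% in control and 67.0% and 66.4% in KD replicates 1 and 2, a difference of -6.52 points. Without MYOD control replicate 1 or 2 it was -3.62 and -3.39, and without either KD replicate -4.44. Kept sites carried the mark most often, at 79.0% and 77.2% in control and 85.2% and 84.3% in KD. That difference of 6.63 points turned to -1.37 with H3K27ac lists of equal length, whereas the lost sites' difference was -11.6 under the same setting.

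Site by site, 2541 gained sites (32.2%) had H3K27ac in the KD libraries alone (both of them), against 10.6% of all sites, 1.39% of lost and 6.72% of kept sites. A further 2611 gained sites (33.0%) had no H3K27ac peak in any library, against 27.3% of all sites, and 1474 (18.7%) had one in all 4, against 47.3% of all sites. Among lost sites, 3053 (61.6%) had H3K27ac in all 4 libraries, and 289 (5.83%) had it in the control libraries alone, against 2.53% of all and 2.22% of kept sites. Most lost sites thus had H3K27ac in every library, while the smaller group marked in control alone was above its share over all sites.

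The H3K27ac difference at gained sites went with distance from control peaks. Among the 6869 gained sites over 1000 bp from a control peak, shares were 15.6% and 14.0% in control and 58.0% and 55.9% in KD, a difference of 42.2 points. The 1034 gained sites nearer to a control peak differed by 10.7 points, with 75% and 72.9% already marked in control. Lost sites differed by -10.0 points where the nearest KD peak was over 1000 bp away (2887 sites) and by -1.60 points where it was nearer (2067 sites).

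SMARCA4 was listed at fewer MYOD sites. Gained sites had a SMARCA4 peak in 3.25% and 8.0% of cases in control and 8.96% and 10.9% in KD replicates 1 and 2. Lost sites had one in 11.5% and 24.7% in control and 6.86% and 7.59% in KD. Kept sites had 23.8% and 43.9% in control and 19.6% and 19.7% in KD. Over all MYOD sites the shares were 10.9% and 21.6% in control and 9.95% and 10.6% in KD. At gained sites both KD libraries lay above both control libraries, while at lost and kept sites both lay below. Gained sites thus lay below the share over all sites in control and near it in KD. The margin at gained sites, 8.96% against 8.0%, was narrower than the spread between the control libraries.

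The SMARCA4 control libraries differed from each other, with 11835 and 25013 peaks, against 12518 and 14676 in KD. At gained sites the difference was 4.3 points with all libraries, 1.92 without SMARCA4 control replicate 1 and 6.67 without SMARCA4 control replicate 2. Leaving out a MYOD library in place of a SMARCA4 library gave 2.22 and 2.23 points without control replicate 1 or 2, and 1.65 and 1.51 without KD replicate 1 or 2. At lost sites it was -10.9 points with all libraries, -17.5 without SMARCA4 control replicate 1 and -4.28 without SMARCA4 control replicate 2. Kept sites gave -14.2, -24.2 and -4.12 in the same order. Set against kept sites of the same library, the gained share was 0.137 and 0.182 of the kept share in control and 0.456 and 0.552 in KD. For lost sites this ratio was 0.484 and 0.564 in control and 0.350 and 0.385 in KD. Both ratios separated the groups, and crossed sites differed by -5.33 to -8.08 points in SMARCA4. The exact permutation p was 0.333 for each of these H3K27ac and SMARCA4 shares.

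**Figure D3:**
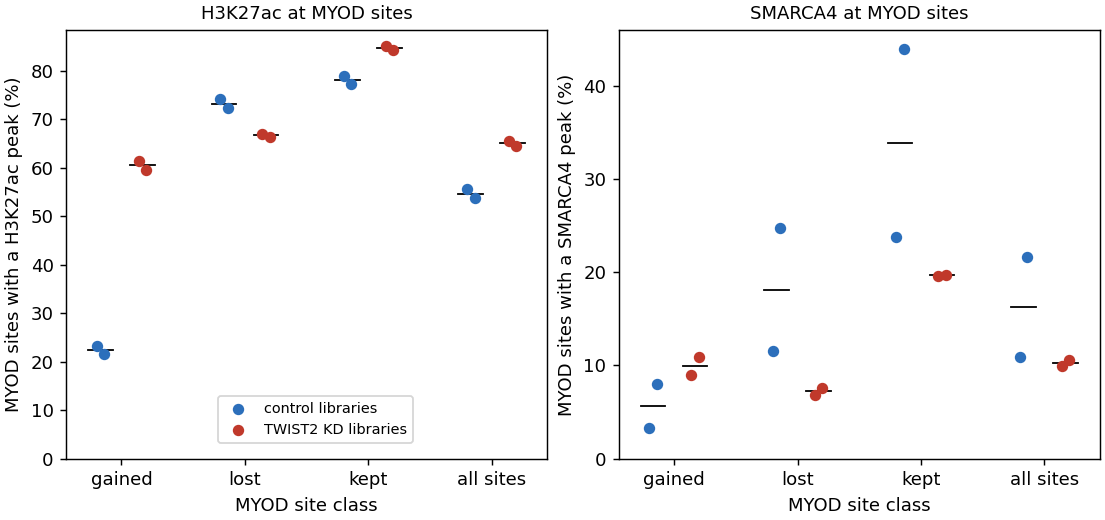
Share of gained, lost, kept and all MYOD sites (horizontal axis) with a peak of H3K27ac (left) or SMARCA4 (right) in each library (vertical axis, %), with 1 point per library and a line at the mean of 2 libraries. At gained sites the KD points lie above the control points for both antibodies, and at lost sites below.

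Tagged TWIST2 was found at a larger share of kept than of gained or lost MYOD sites. Both Ty1 libraries had a peak at 46.5% of kept sites (95% Wilson interval 45.8 to 47.2), 24.4% of gained sites (23.5 to 25.4) and 20.5% of lost sites (19.4 to 21.7). The share over all sites was 26.6%, and over crossed sites it was 25.5% (24.5 to 26.5). The order of gained and lost sites turned with the libraries used: without KD replicate 1 the shares were 20.1% of gained and 24.3% of lost sites, and without KD replicate 2 they were 18.5% and 24.7%. Without control replicate 1 they were 27.7% and 17.0%, and without control replicate 2 they were 27.4% and 16.6%. In each setting the class left with 1 library in its own group took in unreplicated peaks, and that class had the lower share. The turn therefore cannot be told apart from this change in the class definition. Kept sites ranged from 43.2% to 45.0% in these settings, above both gained and lost sites. Both Ty1 libraries had a peak centred within 50 bp of the MYOD centre at 17.9% of kept, 7.96% of gained and 6.62% of lost sites. Over all sites this share was 8.95%, and over crossed sites it was 7.80%. Among gained sites, those with tagged TWIST2 had H3K27ac in the KD libraries alone in 36.6% of 1931 cases, and those without in 30.7% of 5972 cases. The Ty1 libraries come from cells with the tagged protein and not from the control cells, and they have no control or knockdown counterpart among the peak lists.

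Sites were also chained into clusters where neighbouring centres were at most 12500 bp apart. This gave 38073 clusters, of which 17397 held a single site and the longest held 27. Gained sites stood alone in 29.9% of cases, against 12.3% of lost, 20.6% of kept and 19.8% of all sites. The nearest other site lay a median of 6689 bp from a gained site and 996 bp from a lost site, against 5249 bp from a kept site and 3260 bp over all sites. Of 20676 clusters with 2 or more sites, 116 were made up only of gained sites and 21 only of lost sites. The larger number of gained sites was not allowed for in these counts. Of 11774 clusters with 3 or more sites, 57 (0.484%) had at least 3 gained and no lost site, and 42 (0.357%) had at least 3 lost and no gained site. With equal numbers of peaks per library the order turned, with 41 gained and 53 lost clusters. A gained and a lost site occurred together in 949 clusters, out of 7117 with a gained site and 4516 with a lost site. Without KD replicate 1 or 2 the gained clusters numbered 267 and 431, and without control replicate 1 or 2 the lost clusters numbered 149 and 227. Without KD replicate 1 there were 64 lost clusters.

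The cluster with the most gained sites and no lost site was on chromosome 7, from 13198724 to 13231475, a stretch of 32752 bp with 7 sites of which 6 were gained. MYOD sites there numbered 0 and 1 in the control and 6 and 6 in the KD libraries. H3K27ac peaks moved with them, with 0 and 1 in control and 5 and 5 in KD. SMARCA4 had no peak in either control library and 1 in each KD library. On chromosome 8, from 99932546 to 99965892, 4 of 7 sites were gained, with no MYOD peak in control and 6 and 5 in KD. With equal numbers of peaks per library its excess of gained sites fell from 4 to 2, below the 3 needed for a call. On chromosome 9, from 84161044 to 84194602, MYOD sites numbered 2 and 1 in control and 6 and 4 in KD, and H3K27ac peaks 2 and 1 against 6 and 4. SMARCA4 peaks overlapped between the groups in both, with 0 and 1 against 0 and 2 on chromosome 8 and 0 and 1 against 2 and 0 on chromosome 9. They overlapped too in the clusters from 6291394 on chromosome 7 (1 and 4 against 1 and 1) and from 94125777 on chromosome 1 (1 and 5 against 3 and 2). H3K27ac peaks there numbered 6 and 6 against 8 and 7, and 6 and 8 against 7 and 8.

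The most lost sites without a gained one, 5 each, were found in clusters on chromosomes 1 and 16. On chromosome 1, from 151020009 to 151043877, 5 of 7 sites were lost. MYOD sites numbered 6 and 6 in control and 2 and 1 in KD, while H3K27ac had 3 peaks in each of the 4 libraries. On chromosome 16, from 4526146 to 4622961, sites numbered 12 and 13 in control and 8 and 6 in KD. H3K27ac peaks there numbered 11 and 7 in control and 8 and 7 in KD, so the groups touched. With lists thinned to a spacing of 1000 bp, the chromosome 1 cluster was left with 1 more lost than gained site, down from 5, and the chromosome 16 cluster with 4 more, down from 5. The chromosome 7 cluster with 6 gained sites kept that excess under that setting, and the chromosome 8 cluster had 3, down from 4.

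Most kept sites in 1 cluster were found on chromosome 17, from 76300530 to 76418330. It held 24 sites, 10 of them kept, with 16 and 18 sites in control and 19 and 19 in KD, and 9 and 12 peaks of tagged TWIST2. The cluster on chromosome 10 from 80874329 to 80963935, with 8 kept sites, also contained the gained site that was highest in the KD lists. That cluster had 10 and 12 sites in control and 12 and 14 in KD.

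Windows of 100 kb stood in for gene loci. A window was called gained where both KD libraries had more sites than both control libraries and at least 3 gained sites, more than the lost ones, lay in it, and lost by the mirror rule. Of 17959 windows with a MYOD site, 242 (1.35%) were called gained and 80 (0.445%) lost. With equal numbers of peaks per library these counts were 147 and 157, so the excess of gained windows was not there under that setting. Leaving out a library gave more calls in every case, with 510 and 486 gained and 615 and 828 lost windows without control replicate 1 or 2, and 1315 and 1868 gained and 388 and 280 lost windows without KD replicate 1 or 2. Called windows were rich in sites, with a median of 8 in gained and 11 in lost windows against 4 over all. They held only 9.62% of gained and 5.19% of lost sites, so most changes lay outside called windows. No kept site lay in 76 of the gained windows (31.4%) and in 12 of the lost windows (15%). In 18 gained windows neither control library had a peak, and no lost window was without a KD peak. No share over all windows stands beside these counts of empty windows, so they only describe the called windows.

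Gained windows included places where the control lists were empty. On chromosome 6, from 57700001 to 57800000, MYOD sites numbered 0 and 0 in control and 4 and 4 in KD, and H3K27ac peaks 1 and 2 against 4 and 4. Its excess of gained sites fell from 4 to 2 with equal numbers of peaks per library. On chromosome 8, from 99500001 to 99600000, MYOD sites numbered 0 and 0 against 6 and 5, and H3K27ac peaks 1 and 1 against 6 and 6. The window on chromosome 9 from 91300001 to 91400000 also had 0 and 0 MYOD sites against 4 and 4, but 1 H3K27ac peak in every library. Its tagged TWIST2 peaks numbered 5 and 7. On chromosome 6, from 155100001 to 155200000, H3K27ac was absent from both control lists and had 4 and 6 peaks in KD, beside 1 and 2 MYOD sites in control and 5 and 6 in KD.

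Some called windows touched one another. In 6 cases 2 adjacent windows were both gained, and in 1 case 2 adjacent windows were both lost. The number of such pairs to be expected from 242 gained and 80 lost among 17959 windows was not computed. The pair with the most gained sites was on chromosome 6 from 149200001 to 149400000, with 7 gained and 2 lost sites and 11 and 8 sites in control against 17 and 15 in KD. On chromosome 10, from 53800001 to 54000000, a pair with 6 gained and no lost site had 5 and 5 sites in control and 17 and 12 in KD. H3K27ac peaks in that pair numbered 3 and 2 in control and 10 and 12 in KD.

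Among lost windows, chromosome 17 from 56000001 to 56100000 had 8 and 8 sites in control and 2 and 3 in KD. H3K27ac peaks there were nearly level, at 7 and 7 against 8 and 7. On chromosome 2, from 242200001 to 242300000, MYOD sites numbered 7 and 6 in control and 4 and 1 in KD. Chromosome 19 from 54900001 to 55000000 went from 6 and 9 sites to 4 and 4, and here H3K27ac also had fewer peaks, with 5 and 5 in control and 3 and 2 in KD. With lists thinned to 1000 bp the chromosome 17 and chromosome 19 windows kept an excess of 1 lost site each, down from 4, and the chromosome 2 window 1, down from 5. The other lost windows of this kind varied. The window on chromosome 15 from 74200001 to 74300000 kept its excess of 4. Those on chromosome 16 from 4500001 and on chromosome 2 from 219100001 had 3, down from 4. Those on chromosome 11 from 73000001 and on chromosome 1 from 151200001 had 2, down from 4. Also on chromosome 1, the window from 148500001 had 1, down from 3, and the window from 151000001 had 0, down from 4.

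**Figure D4:**
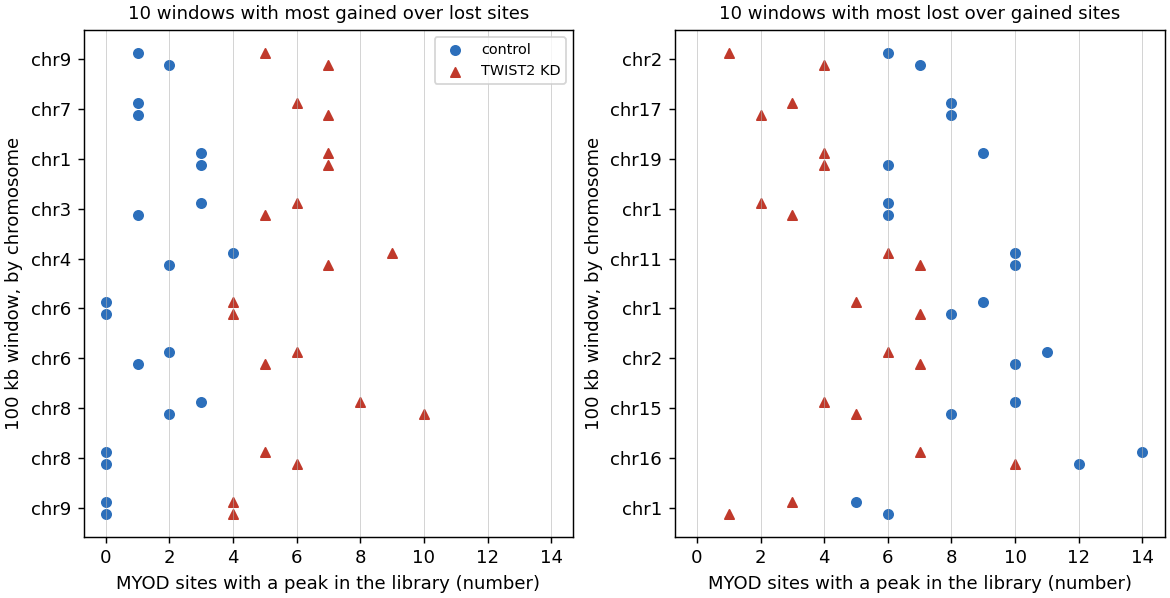
MYOD sites with a peak in each library (horizontal axis, number) in the 10 windows of 100 kb with the largest excess of gained over lost sites (left) and of lost over gained sites (right), labelled by chromosome, with 1 point per library. In every window shown the control and KD points do not overlap, which is part of the rule that chose them, and 3 gained windows have 0 sites in both control libraries.

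More H3K27ac peaks in both KD than in both control libraries were found in 162 of 242 gained windows (66.9%), against 34.3% of all windows. Fewer were found in 18 of 80 lost windows (22.5%), against 5.78% of all windows, and more in 10 of them. SMARCA4 peaks were more numerous in KD in 19 gained windows (7.85%), against 3.90% of all windows. They were fewer in KD in 30 gained windows (12.4%) and in 14 lost windows (17.5%), against 10.0% of all windows. Called windows held more MYOD sites than the background windows, and the part of this in the shares was not tested.

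Along the genome the KD lists were longer on 18 of 23 chromosomes without overlap between the groups. On chromosomes 16, 17 and 22 the groups overlapped. The KD over control ratio of peaks was highest on chromosome 18 (924 and 898 peaks in control, 1256 and 1141 in KD, ratio 1.32), followed by chromosome 21 (1.27) and chromosome 4 (1.24). Chromosomes 19 and X went the other way. Chromosome 19 had 2042 and 1955 peaks in control and 1849 and 1717 in KD, a ratio of 0.892, with 194 gained and 269 lost sites. Chromosome X had 816 and 818 peaks in control and 706 and 772 in KD, a ratio of 0.905, with 108 gained and 140 lost sites. The remaining 21 chromosomes each had more gained than lost sites. The H3K27ac ratio was 0.995 on chromosome 19 and 1.33 on chromosome X.

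**Figure D5:**
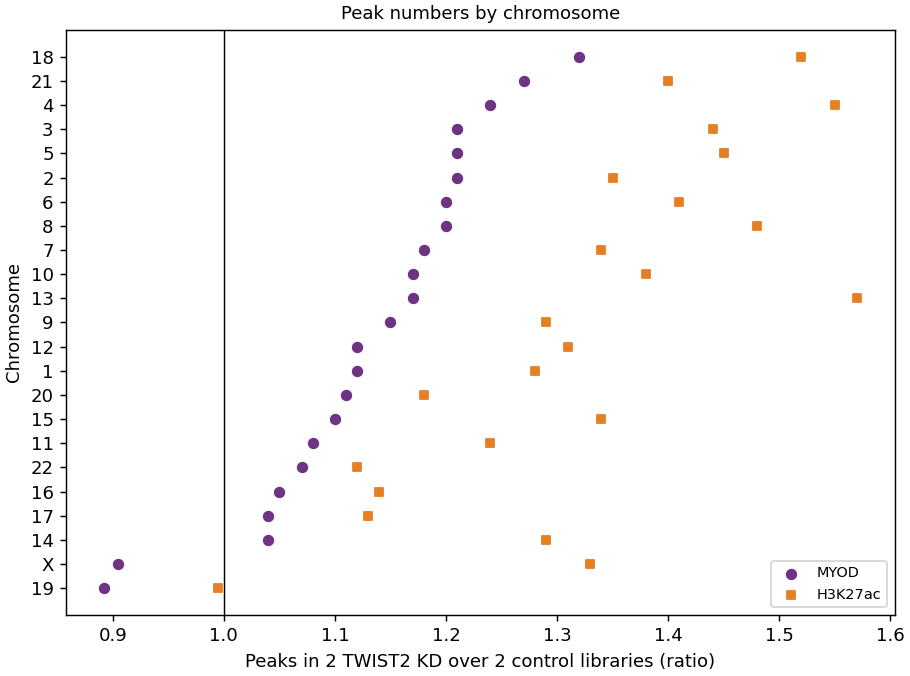
Ratio of the number of peaks in the 2 KD libraries to that in the 2 control libraries (horizontal axis) on each chromosome (vertical axis, ordered by the MYOD ratio), for MYOD and H3K27ac. MYOD ratios run from 0.892 on chromosome 19 to 1.32 on chromosome 18, and chromosomes 19 and X are the MYOD points left of the line at 1.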

How the data were processed

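Formaldehyde-fixed, sonicated chromatin was precipitated, per the labels, with antibodies to MYOD (G1 clone), H3K27ac, Ty1 or BRG1. Per the submitters' processing notes, the tools were HOMER 4.4, Bowtie2 2.3.4.3, bedtools 2.29.2 and SAMtools 0.1.19 and the build was hg19 (GRCh37). The authors deposited 1 peak list per library. The MYOD, H3K27ac and Ty1 lists give positions without score or tag count, so their depth is unknown. Against a GRCh38 gene table, 14 of 23 chromosomes had peaks past the last gene. The planned gene loci, 17 gene lists and E-box shares, which need hg19 annotation and sequence, were not analysed here.

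Sites, clusters (12500 bp), windows (100 kb) and overlaps (at least 1 bp) were computed with pandas 2.3.3, scipy 1.17.1 and numpy 2.4.6 in Python 3.11.15, after tests on simulated lists. Figures were drawn with matplotlib 3.10.9. Groups came from the labels and were compared by exact permutation over libraries. The text names the 4 sites of each class highest in the lists and draws its regions from the 5 clusters and 10 windows of each kind with the most sites of a class, pairs of adjacent gained windows being added after the data were seen. The members and lists were chosen with earlier results of these data known. Alternatives covered window size, list length, list thinning, thresholds and left-out libraries.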

Additional observations from a re-analysis of the deposited data

Results flagged for a closer look

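On chromosome 19 the KD over control ratio of MYOD peaks was 0.892, and on chromosome X it was 0.905. In both cases each KD library had fewer peaks than each control library, the opposite of the 18 chromosomes on which each KD library had more. The difference between chromosomes was not tested.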

How the results depend on the processing

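Of the alternatives tried on the main results, 3 values reversed and 61 moved beyond the limit set for them. The other 153 kept their direction, and counts among them stayed within 1.5 times. For differences in H3K27ac and SMARCA4 shares only the direction was judged, and their sizes did move. The reversals were the ratio of gained to lost sites, 0.907 without control replicate 1 and 0.826 without control replicate 2, and the H3K27ac difference at kept sites, -1.37 points with lists of equal length. In the upper part of each list (first 50% of the peaks) there were 5036 gained, 3064 lost and 9701 kept sites, with tagged TWIST2 at 34.2%, 25.7% and 52.3% and median distances of 19303 bp for gained and 5639.5 bp for lost sites. With 50 bp on either side, tagged TWIST2 was at 22.5% of gained and 45.4% of kept sites; merging centres at most 100 bp apart is the same setting by construction. Thinning to 1000 bp gave tagged TWIST2 at 22.2% of lost and 47.9% of kept sites, a median distance of 2695.5 bp for lost sites, 40 lost windows and 17 lost clusters. Equal numbers of peaks gave 147 gained and 157 lost windows and a median of 3571 bp for lost sites. Requiring 2 sites gave 995 gained and 354 lost windows, 250 bp on either side gave 40 lost windows, windows of 50 kb gave 83 and 34, and windows of 200 kb 488 and 150. Clusters numbered 3 gained and 3 lost at 5 kb, and 172 gained at 25 kb. Thinned lists, equal-length H3K27ac and SMARCA4 lists, other window sizes, all distance settings and all SMARCA4 settings were chosen after seeing the data. Equal numbers of MYOD peaks per library were a planned setting, except for distances.

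Leaving out 1 library gave 10985 to 20758 gained, 8221 to 13414 lost and 20667 to 21505 kept sites, a ratio of 0.826 to 2.52, 486 to 1868 gained and 280 to 828 lost windows, and 73 to 431 gained and 45 to 227 lost clusters. Tagged TWIST2 ranged from 18.5% to 27.7% of gained, 16.6% to 24.7% of lost and 43.2% to 45% of kept sites. The KD minus control difference in H3K27ac ranged from 24.9 to 32.6 points at gained, -4.44 to -3.39 at lost and 5.26 to 8.68 at kept sites, and in SMARCA4 from 1.51 to 6.67, -17.5 to -4.28 and -24.2 to -4.12. The KD over control ratio of the gained to kept SMARCA4 share ranged from 2.10 to 3.69, around 3.16. A class that rests on fewer libraries holds more sites by construction. Pairing libraries by replicate number (replicate block) left the difference in peaks at 6079, with an exact p of 0.5, the smallest it can give. Gene loci with flanks of 5 and 50 kb and E-box shares were not run. Unknown depth limits every statement on a missing peak.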
